A study of Mus musculus with 38 samples.

Results

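Variable (V) segments of the antibody heavy chain (Ighv) and of the kappa light chain (Igkv) were followed through RNA sequencing of mouse intestinal tract. Members were chosen by their level: a segment was taken when its mean over the 18 libraries of the Apc table reached 1 CPM (reads of the gene per 1000000 counted reads of the library). Of the 345 Ighv and Igkv symbols in the tables, 142 met this rule: 69 of 185 Ighv and 73 of 160 Igkv, among 55416 genes. The rule used the mean over all arms of the Apc table, so the levels themselves are given as a description.

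The study sequenced bulk poly(A) RNA of the gut, with Colon in the column names of the Apc table. It dealt with mice with colorectal cancer that were fed black rice or a control diet, beside libraries titled WT. Its 38 libraries stood in 3 tables: 18 in the Apc table (6 each of black rice, control diet and WT), 12 in the AOM table (6 of each diet) and 8 in the third table (4 of each diet). In Apc and AOM libraries the titles carried the letter F or M, here called the code, with 3 libraries of each per arm. The labels named black rice or control as the treatment and named none for WT. They gave no strain, allele, dose, time or age, and the letters FMT in the name of the third table were not explained. Nothing said that libraries of a group came from separate animals, so the p-values below measure only the spread between these libraries. In bulk RNA, fewer cells of a type and less RNA per cell cannot be told apart.

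V segments are the gene pieces from which the first and most variable part of an antibody chain is made. A developing B cell joins a single heavy V segment to a D and a J segment and a single kappa V segment to a J segment, and its descendants keep that joint. Plasma cells, the descendants that secrete antibody, hold large amounts of these messages, and most of those in the gut lining make IgA for transport into the lumen. A read placed on the right V segment in gut RNA therefore counts message from whichever B cells and plasma cells had used that segment. How often reads were lost or placed on a similar segment was not measured.

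The 3′ ends of some segments are printed below because the results turn on them: each heavy segment printed was first or second in an Apc black rice library or, for Ighv9-3, passed the test between diets, and each light segment led a library or, for Igkv17-121, passed the test against WT. Each line gives the last 60 bases of the GENCODE M21 (GRCm38) transcript, 5′ to 3′. The codon in capitals is the conserved cysteine before the joint, found as TGT or TGC after 2 codons for tyrosine or phenylalanine.
Ighv6-3: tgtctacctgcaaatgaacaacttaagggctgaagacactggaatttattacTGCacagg
Ighv1-76: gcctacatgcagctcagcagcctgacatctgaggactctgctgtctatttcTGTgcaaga
Ighv1-53: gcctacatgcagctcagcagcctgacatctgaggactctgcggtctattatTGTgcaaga
Ighv1-26: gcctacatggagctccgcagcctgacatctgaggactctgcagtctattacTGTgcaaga
Ighv9-3: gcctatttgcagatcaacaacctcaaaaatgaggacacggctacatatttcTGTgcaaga
Igkv5-43: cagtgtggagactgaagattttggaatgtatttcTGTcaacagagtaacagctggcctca
Igkv1-117: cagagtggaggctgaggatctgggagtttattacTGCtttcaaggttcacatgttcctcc
Igkv1-110: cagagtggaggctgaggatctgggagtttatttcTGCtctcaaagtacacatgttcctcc
Igkv8-28: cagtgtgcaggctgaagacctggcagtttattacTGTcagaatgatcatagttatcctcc
Igkv17-121: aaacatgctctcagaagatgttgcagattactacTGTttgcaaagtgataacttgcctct

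After the cysteine codon the Ighv ends ran on for 5 bases in Ighv6-3 and 6 in the other printed heavy segments, and the Igkv ends for 23 bases. The motif stood in 140 of the 142 members (98.6%) and in 139 of the 203 other Ighv and Igkv symbols (68.5%). A match is a description of these letters only.

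Whether reads of neighbouring segments could be mixed up was read from the transcripts. Of the 69 Ighv members, 49 shared no stretch of 100 bases with any other Ighv or Igkv transcript, and of the 73 Igkv members 39 shared none. Ighv6-3, Ighv1-76, Ighv9-3 and Igkv8-28 shared none, but 14.0%, 18.8%, 23.2% and 18.1% of their 50-base stretches were shared. For Ighv1-53 and Ighv1-26 the 50-base values were 57.6% and 49.0%. Igkv8-28 differed from Igkv8-19 at 9 of 370 bases. Igkv5-43 shared 33.6% of its 100-base stretches with Igkv5-45 and Igkv17-121 shared 16.9% with Igkv17-127. Igkv1-117 and Igkv1-110 differed at 10 of 401 bases. Counts of such partners are uncertain where the authors' counting could split reads between them.

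No member was annotated as a pseudogene, against 70 of the 116 Ighv and 60 of the 87 Igkv symbols below the limit. The members held 97.8% of all Ighv CPM and 98.9% of all Igkv CPM. Just inside the limit stood Ighv1-11 at 1.13 CPM and Igkv4-62 at 1.14 CPM. Just outside stood Ighv1-84 at 0.945 CPM and Igkv12-98 at 0.942 CPM. Reads were found in all 18 Apc libraries for 58 Ighv and 59 Igkv members.

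Libraries held 44.8 to 61.9 M counted reads in the Apc table, 37.9 to 55.1 M in the AOM table and 66.6 to 91.1 M in the third. AOM black rice F replicate 3 stood apart with 5.37 M reads and is left out of every AOM value except where all 12 libraries are named. Epithelial marker genes were abundant in every library analysed, with a summed level of 5800 to 30081 CPM. Rag1, which cuts DNA for V(D)J joining in developing B cells, had no read in 13 of 18 Apc, 10 of 11 AOM libraries and all 8 libraries of the third table.

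Within the Apc table the heavy segments of highest mean CPM were Ighv6-3 (53.0), Ighv6-6 (31.0), Ighv1-53 (27.5), Ighv1-26 (27.4), Ighv3-6 (26.7), Ighv1-81 (26.1), Ighv1-76 (24.1), Ighv1-64 (17.6), Ighv1-78 (16.1) and Ighv9-3 (14.48). The light segments of highest mean CPM were Igkv5-43 (70.3), Igkv1-117 (63.0), Igkv10-96 (38.3), Igkv1-110 (37.5), Igkv14-111 (31.7), Igkv1-135 (28.4), Igkv6-15 (27.4), Igkv15-103 (22.4), Igkv3-4 (21.5) and Igkv6-23 (21.5). Median levels were far lower, 4.78 CPM for Ighv and 8.27 CPM for Igkv. The Ighv1 family supplied 36 members and 54.8% of the heavy reads, while the 2 members of Ighv6 supplied 14.8%. Kappa reads were spread over more families, with 15.8% in the 20 members of Igkv4 and 15.7% in the 7 members of Igkv1.

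These means did not describe typical libraries. A single library, black rice M replicate 2, held 56.4% of all Igkv5-43 CPM summed over the 18 libraries and 25.4% of all Ighv6-3 CPM. For Ighv1-76 a single library held 41.5%, and for Ighv1-53 36.6%. The order of segments was nonetheless alike between tables: across the 69 Ighv segments, Spearman's rho of mean CPM was 0.79 between Apc and AOM, 0.77 between Apc and the third table and 0.71 between AOM and the third table. Across the 73 Igkv segments the values were 0.77, 0.78 and 0.65. Segments are not independent replicates, and they share annotation, transcript length and mapping in all 3 tables. Position along the locus went with level only weakly, with rho from 0.06 to 0.30 over the 6 comparisons.

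The summed level of all 142 segments was lower with black rice than with the control diet in the Apc table. The black rice F libraries held 520, 223 and 288 CPM and the black rice M libraries 825, 1852 and 1393 CPM. The control F libraries held 1145, 1248 and 3783 CPM and the control M libraries 1634, 1900 and 1686 CPM. The F libraries of the diets did not overlap, and the M libraries did. WT libraries held 1685, 1011 and 355 CPM in F and 2636, 2514 and 1255 CPM in M, overlapping both diets. Arm means were 850 ± 651 CPM with black rice, 1899 ± 965 with the control diet and 1576 ± 886 in WT (SD, n = 6 each). On the log2 scale the diet difference, averaged over the codes, was -1.44, beside a within-group SD of 0.65. No test is given for a sum over chosen members.

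**Figure D1:**
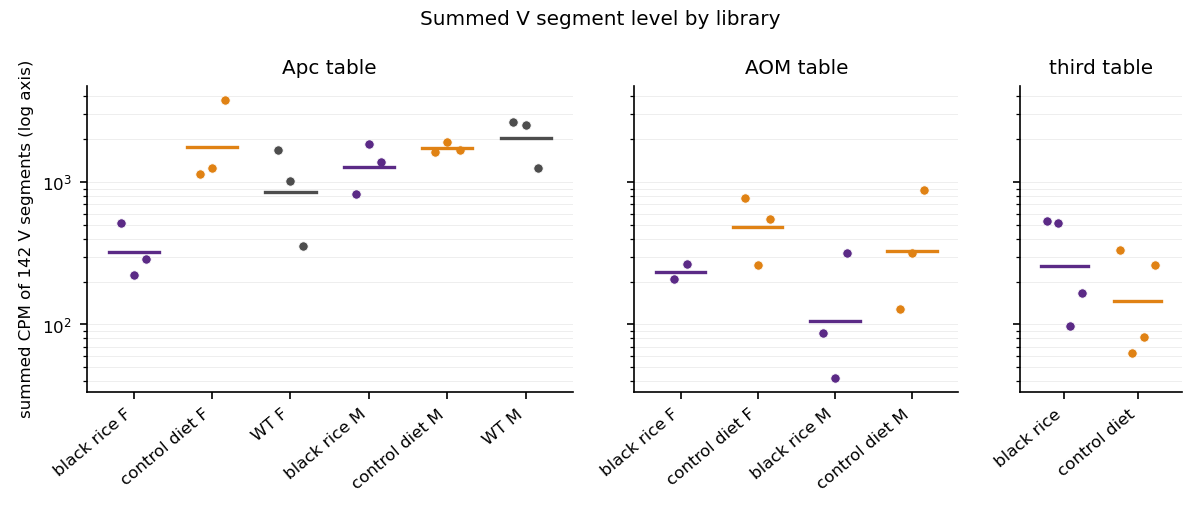
Summed CPM of the 142 V segments in each library (points, log axis) by arm and code in the Apc table, the AOM table and the third table, with geometric group means as lines. In the Apc table the black rice F libraries lie at 223 to 520 CPM, below the control F libraries at 1145 to 3783 CPM, and AOM black rice F replicate 3 is not among the AOM libraries.

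Heavy and light segments went together. Across the 18 Apc libraries the summed Ighv level and the summed Igkv level had a Spearman's rho of 0.89. The Igkv to Ighv ratio was 1.5 ± 0.52 with black rice, 1.57 ± 0.29 with the control diet and 1.65 ± 0.12 in WT (SD, n = 6). The black rice ratios spread from 0.857 to 2.20 and contained the whole range of the WT ratios.

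Constant chains were also at lower levels with black rice, mainly in F, without passing the test. Igha, the IgA heavy constant chain, was at 437 ± 107 CPM in black rice F and 2395 ± 1320 CPM in control F libraries, and at 1833 ± 438 and 2586 ± 456 CPM in M libraries (SD, n = 3). Its fitted difference over both codes was -1.46 (SE 0.32) on the log2 scale, adjusted p = 0.134 by edgeR's quasi-likelihood test with Benjamini-Hochberg adjustment over all genes tested. Igkc, the kappa constant chain (-1.62, SE 0.34), and Jchain, which links IgA and IgM into polymers (-1.44, SE 0.32), had similar values that did not pass either. Of the 13 constant chain genes 0 passed by edgeR in any comparison, and 9 were lower at an unadjusted p under 0.05, where 6.06% of all genes tested were, with a median difference of -1.44. Ighm differed by -1.26 (SE 0.46) and Ighg1 by -1.40 (SE 0.84), neither past the threshold.

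Set against the constant chains, V segment reads did not separate the diets. The ratio of Igkv to Igkc CPM was 0.231 ± 0.047 with black rice, 0.210 ± 0.034 with the control diet and 0.202 ± 0.043 in WT (SD, n = 6). For Ighv against all heavy constant chains the ratios were 0.255 ± 0.076, 0.233 ± 0.054 and 0.216 ± 0.068. The libraries of the 3 arms overlapped in both ratios. Igha supplied 61.3% to 91.9% of heavy constant CPM in the Apc libraries.

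The 3 non-immunoglobulin genes whose pattern over the 18 Apc libraries was most like the summed segments were Ccr10, the receptor for a mucosal chemokine (Spearman's rho 0.92 among 15801 genes compared), Derl3, a protein of the degradation route of the endoplasmic reticulum (0.89), and Tnfrsf17, the plasma cell survival receptor BCMA (0.86). Igha had 0.95, Igkc 0.93 and Jchain 0.90. Sdc1, which plasma cells share with epithelium, had 0.21. Derl3 was at 1.70 ± 0.29 CPM in black rice F and 9.12 ± 4.35 in control F libraries, and at 7.06 ± 2.71 and 7.56 ± 0.70 in M libraries (SD, n = 3).

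Markers of some other cell types also differed between the diets of the Apc table. The 9 T cell genes together held 18.3 to 56.7 CPM with black rice and 40.6 to 120.5 CPM with the control diet. Of these 8 were lower at an unadjusted p under 0.05, where 6.06% of all genes were. Of 8 smooth muscle genes 6 were higher at that level, where 4.21% of all genes were, with a summed level of 3098 to 5943 against 2323 to 3625 CPM. Over both codes all 12 B cell genes had a difference below 0 and 1 reached an unadjusted p under 0.05, with a summed level of 20.9 to 224 against 51.7 to 544 CPM. By code, the B cell genes had a median of -1.99 in F, with 12 below 0, and of 0.09 in M, with 6 below and 6 above. Of 12 plasma cell genes 7 were lower and 1 higher at that level over both codes, where 6.06% and 4.21% of all genes were. In F 9 were lower, with a median of -1.43, where 5.73% of all genes were lower. In M 0 were lower and 1 higher, with a median of -0.10, where 4.86% and 3.67% of all genes were. The summed plasma cell level averaged 312 CPM with black rice and 505 CPM with the control diet in F, and 481 and 435 CPM in M. Sdc1 differed by -0.13 (SE 0.18), which did not pass the adjusted threshold in edgeR's quasi-likelihood test. Of 8 epithelial genes 5 were below 0 and 3 above over both codes, and 1 was higher at that unadjusted level. Of the genes tested, 2 of 7 for IgA transport, recruitment and survival, 3 of 6 germinal centre and recombination and 1 of 5 follicle genes were lower. Of 8 liver genes 0 were lower or higher over both codes. In M 5 of them were lower and in F 1 was higher, where 4.86% and 4.51% of all genes were. No gene of these lists passed in any comparison by edgeR. Their part in the segment result was not tested.

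Beyond the total, reads fell on fewer segments in the black rice libraries of the Apc table. Evenness was expressed as the effective number of segments, the number of equally used segments that would give the same Shannon entropy, for Ighv and Igkv apart. To remove depth, each library's reads were thinned to the lowest class total of the table, 4823 reads for Ighv and 5948 for Igkv. In Ighv the black rice F libraries gave 33.9, 17.5 and 31.2 and the black rice M libraries 26.1, 10.8 and 15.6. The control libraries gave 38.8, 40.2 and 38.7 in F and 41.3, 37.0 and 27.5 in M. Within each code every black rice library lay below every control library, although in M the nearest pair was 26.1 against 27.5. WT libraries gave 45.0, 36.4 and 33.8 in F and 31.0, 34.0 and 29.9 in M.

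Kappa segments gave the same picture. The black rice libraries had effective numbers of 34.8, 25.1 and 38.7 in F and 29.7, 7.76 and 29.5 in M. The control libraries had 44.6, 40.2 and 39.9 in F and 45.0, 39.6 and 33.5 in M, again above all black rice libraries of their code. WT libraries had 39.9, 38.6 and 43.9 in F and 35.3, 38.9 and 26.2 in M, and the lowest WT M library lay below 2 black rice M libraries. Averaged over the codes, black rice minus control was -14.7 for Ighv (22.5 ± 9.24 against 37.2 ± 4.97) and -12.9 for Igkv (27.6 ± 10.8 against 40.5 ± 4.19; SD, n = 6). Arm means of WT were 35.0 ± 5.39 and 37.1 ± 6.03. With only the segments of at least 5 CPM, the Ighv difference was -7.81.

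**Figure D2:**
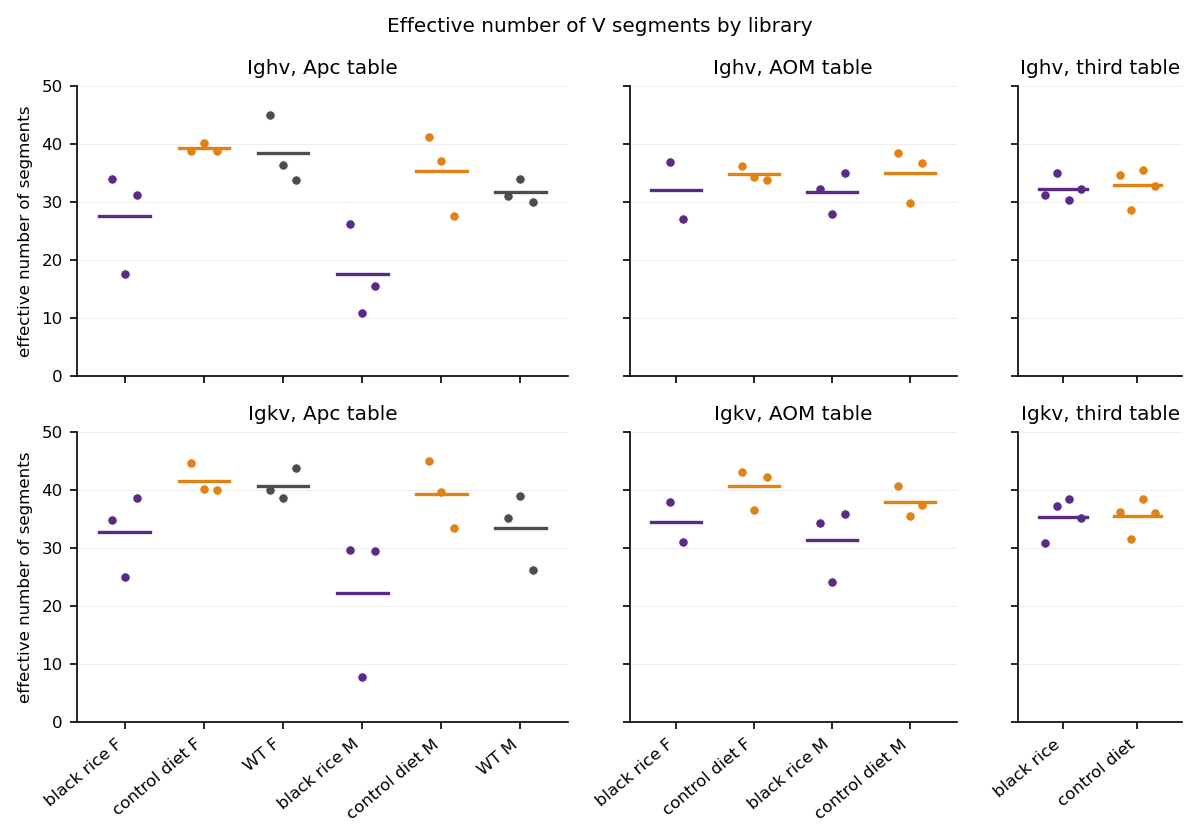
Effective number of Ighv segments (upper row) and Igkv segments (lower row) in each library (points) by arm and code, with group means as lines, from reads thinned to the lowest class total of each table. In the Apc table black rice libraries reach down to 10.8 for Ighv and 7.76 for Igkv, and no black rice library reaches a control library of its code.

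The same difference could be read from single segments. The leading segment of a library held on average 22.2% ± 11.3 of Ighv reads with black rice, 12.1% ± 3.55 with the control diet and 11.8% ± 3.38 in WT (SD, n = 6). For Igkv the values were 23.4% ± 16.9, 8.90% ± 2.97 and 9.45% ± 2.51. Reaching 50% of Ighv reads took 2 to 9 segments per black rice library and 6 to 12 per control library. For Igkv it took 1 to 11 and 9 to 14. Level and evenness did not go together over the 18 libraries, with a Spearman's rho of 0.13 for Ighv and 0.20 for Igkv, while the effective numbers of Ighv and Igkv had a rho of 0.88.

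The black rice libraries of the Apc table differed in which segments led. In black rice M replicate 2, Igkv5-43 held 56.1% of Igkv reads (exact 95% interval 55.7 to 56.5%, which covers counting error only) and Ighv6-3 held 41.8% of Ighv reads (41.2 to 42.4%). In black rice M replicate 3 the leading heavy segments were Ighv1-53 at 24.1% and Ighv1-76 at 24.0%; both belong to the Ighv1 family. Its leading light segment was Igkv1-117 at 19.1%. In black rice F replicate 2, Ighv1-26 held 24.5%, Ighv7-1 21.1% and Igkv8-28 23.2%. In black rice M replicate 1, Ighv1-81 held 17.0% and Igkv1-117 20.7%. The remaining F libraries were flatter: replicate 1 was led by Ighv8-5 at 8.35% and Igkv8-27 at 12.7%, and replicate 3 by Ighv6-3 at 17.4% and Igkv8-27 at 8.35%.

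Control libraries were led by Ighv6-3 in all 3 F libraries (12%, 7.20% and 14%) and by Ighv1-26 (9.84%), Ighv6-6 (12.2%) and Ighv1-81 (17.6%) in M. Their leading light segments were Igkv4-58 (7.07%), Igkv6-15 (7.01%) and Igkv4-58 (9.43%) in F and Igkv10-96 (6.28%), Igkv1-117 (9.28%) and Igkv1-117 (14.4%) in M. WT libraries were led by Ighv1-26, Ighv1-72 and Ighv6-6 in F and Ighv6-3, Ighv6-6 and Ighv6-3 in M, at 6.43% to 16.5%. Their leading light segments were Igkv5-43, Igkv5-43 and Igkv6-23 in F and Igkv14-111, Igkv1-117 and Igkv12-44 in M, at 6.94% to 13.6%.

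**Figure D3:**
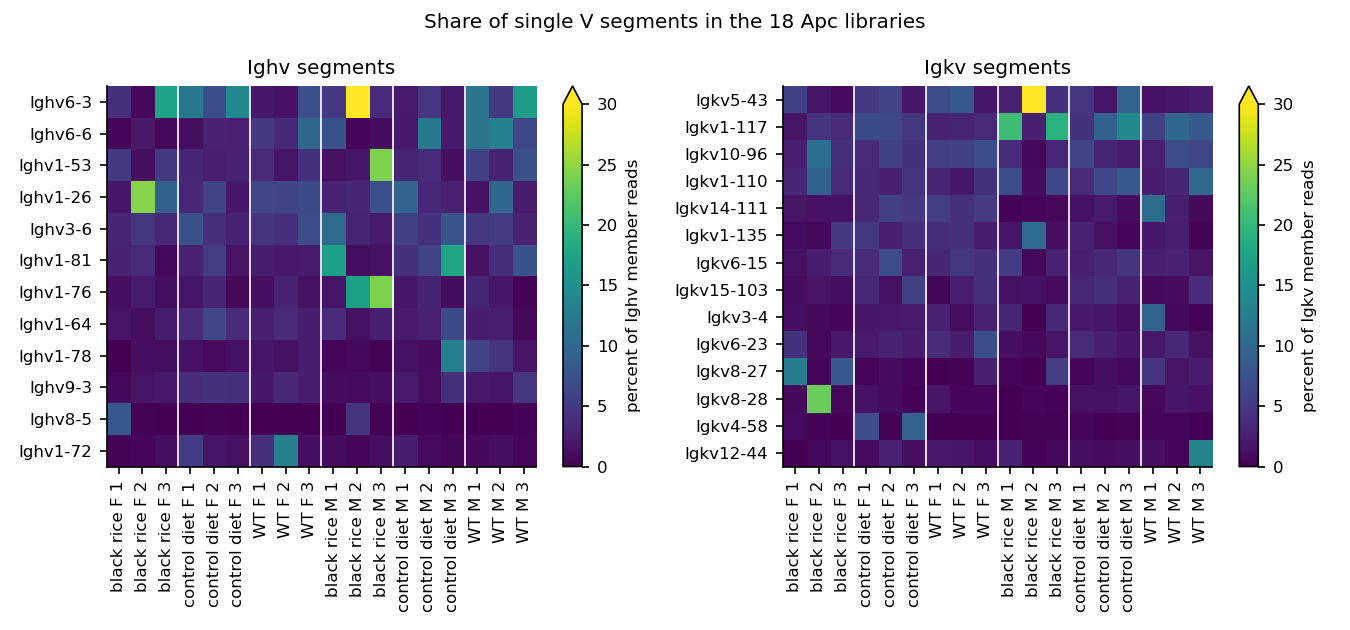
Percent of Ighv reads (left) or Igkv reads (right) on single V segments in the 18 Apc libraries, for the 10 segments of highest mean CPM and every segment that led a library; brighter cells are higher shares, and the colour scale stops below the highest ones. The highest shares are Igkv5-43 at 56.1% and Ighv6-3 at 41.8%, both in black rice M replicate 2.

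For Ighv6-3 the level was 7.85, 0.794 and 17.0 CPM in black rice F and 18.7, 242 and 27.8 CPM in black rice M libraries. Control libraries had 57.3, 32.7 and 205 CPM in F and 11.9, 36 and 16.4 CPM in M, and WT libraries 12, 5.58 and 9.47 CPM in F and 122, 49.8 and 81.0 CPM in M. Its F libraries did not overlap between diets, with black rice lower, while in M black rice held the highest value of all 18. The fitted log2 difference was -3.53 (SE 1.06) in F and 2.15 (SE 1.0) in M. F minus M was -5.68 (SE 1.45), adjusted p = 0.315 in edgeR's quasi-likelihood test, and did not pass.

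Igkv5-43, the light segment of highest mean CPM, also had its highest value in black rice M replicate 2. It stood at 13.4, 714 and 27.7 CPM in black rice M and at 52.0, 19.7 and 87.1 CPM in control M libraries. In F it stood at 19.1, 2.01 and 1.81 CPM with black rice and 33.0, 49.1 and 46.0 CPM with the control diet. Only replicate 2 lay above the control M libraries. The fitted difference over both codes was -0.08 (SE 0.85), with -2.46 (SE 1.28) in F and 2.29 (SE 1.26) in M.

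Ighv1-76 had 6.37, 98.8 and 180 CPM in black rice M libraries and 10.7, 21.8 and 8.20 CPM in control M libraries, so that 2 of the black rice libraries lay far above. In F it had 2.39, 2.29 and 1.14 against 8.32, 14.7 and 8.71 CPM, with no overlap in the other direction. Ighv1-53 stood out in a single library, with 181 CPM in black rice M replicate 3 against 4.93 and 10.5 CPM in the other black rice M libraries and 9.81 to 27.4 CPM in control M. Igkv8-28 reached 26.7 CPM in black rice F replicate 2 and 2.5 and 1.18 CPM in the other black rice F libraries, against 6.45 to 10.1 CPM in control F.

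Ighv8-5 became a member through 2 black rice libraries alone, so its higher level with black rice follows from the choice of members and is a description. Its CPM was 16.2, 0.194 and 0.0406 in black rice F and 0.292, 26.2 and 1.38 in black rice M libraries. Control libraries had 0.0376 to 2.05 CPM. The other 4 black rice libraries lay within the control range.

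Segment by segment, black rice minus control in the Apc table was below 0 for 132 of the 142 members, with a median log2 difference of -2.02. The median over all 21624 genes tested was -0.01. At an unadjusted p under 0.05, 83 members were lower and 1, Ighv8-5, was higher, 58.5% and 0.704% of the members, where 6.06% of all genes tested were lower and 4.21% higher. After adjustment 1 member was lower and 0 were higher, where 0.00925% of all genes tested were lower and 0.00462% higher. Between diets 17 of the 142 members had all 6 black rice libraries below all 6 control libraries and 0 had them above. That compares with 0.835% and 0.139% of all genes of at least 1 CPM.

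Ighv9-3, a heavy segment of a 4-member family, fell. It stood at 1.33, 1.84 and 1.99 CPM in black rice F and 3.67, 4.97 and 9.07 CPM in black rice M libraries. Control libraries had 18.4, 19.2 and 60.9 CPM in F and 11.6, 7.93 and 32.2 CPM in M. The diets were apart within F and overlapped in M by 1 control library. The log2 difference was -2.88 (SE 0.42), adjusted p = 0.037 by edgeR's quasi-likelihood test with Benjamini-Hochberg adjustment. The call ended with a replicate block (adjusted p = 0.052, edgeR), in a fit of only the groups compared (0.097) and with limma-voom (0.203). It was also lost in 8 of the 12 fits that left out a single library, at an adjusted p of up to 0.184, and the log2 difference then ran from -3.07 to -2.48.

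The next members by p did not pass. Igkv17-121 had 0.768 to 1.82 CPM in the 6 black rice libraries and 3.68 to 34.4 CPM in the 6 control libraries, with no overlap, and a log2 difference of -3.22 (SE 0.52). Its adjusted p was 0.062 in the same edgeR test. Igkv4-68 (-2.56), Ighv1-80 (-3.01) and Igkv15-103 (-3.16) had adjusted p of 0.062, 0.062 and 0.083 by edgeR. Ighv1-80 stood at 0.252 to 3.06 CPM with black rice and 3.08 to 16.7 CPM with the control diet, apart by a narrow gap.

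DESeq2 on the same counts called 50 members lower and 0 higher, 1.15% of all genes with an adjusted p being called in either direction. limma-voom called 0 members.

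In the F libraries alone 0 members passed and 0% of all genes tested did. Without adjustment 89 members were lower and 0 higher, where 5.73% and 4.51% of all genes were, and the median log2 difference was -2.98. Of the 142 members 85 (59.9%) had all 3 black rice F libraries below all 3 control F libraries and 0 above, where 12% and 9.49% of all genes did. Ighv9-3 (-4.25, SE 0.64) had an adjusted p of 0.054 in edgeR, and Igkv4-68 (-3.74, SE 0.62) 0.065. DESeq2 called 47 members, against 1.14% of all genes.

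In the M libraries alone 0 members passed, where 0.00462% of all genes tested were lower and 0.0277% higher. By unadjusted p, 34 members were lower and 3 higher, where 4.86% and 3.67% of all genes were, and the median was -1.26. The 3 higher ones were Ighv1-76, Ighv1-4 and Ighv6-3. Of the members 43 (30.3%) had their black rice M libraries wholly below the control M libraries and 0 wholly above, where 10% and 4.48% of all genes did. Ighv2-5 had the smallest p, at 0.0365, 0.0202 and 0 CPM with black rice and 14.0, 0.339 and 1.62 CPM with the control diet (adjusted p = 0.278, edgeR). Igkv6-25 followed with -3.14 (SE 0.82) and an adjusted p of 0.306 in edgeR. DESeq2 called 7 members, against 0.708% of all genes.

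The F difference minus the M difference was tested as an interaction, and 0 members passed, as did 0% of all genes. Before adjustment 37 members were lower and 2 higher, where 4.58% and 4.31% of all genes were, and the median was -1.76. The smallest p belonged to Igkv1-117. It had 5.23, 5.15 and 6.71 CPM in black rice F against 44.7, 52.0 and 114 CPM in control F libraries, which did not overlap. In M it had 94.8, 33.4 and 123 against 48.1, 107 and 130 CPM, which did. Its interaction was -3.47 (SE 0.80), adjusted p = 0.236 by edgeR. DESeq2 called 6 members (Ighv1-4, Ighv1-76, Ighv6-3, Igkv1-117, Igkv14-130 and Igkv4-69), against 0.804% of all genes.

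**Figure D4:**
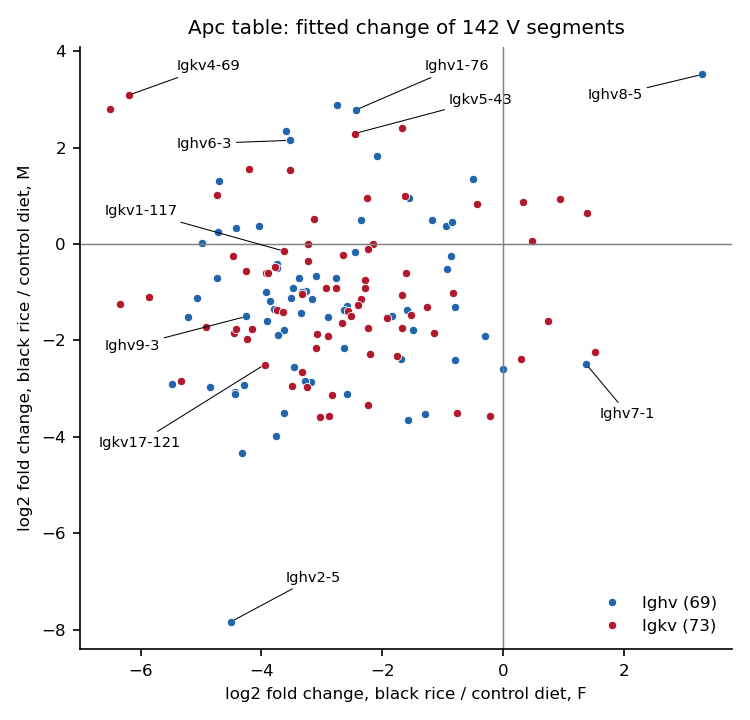
Fitted log2 difference between black rice and control diet in M libraries (vertical) against F libraries (horizontal) for the 142 V segments of the Apc table, with 69 Ighv in blue and 73 Igkv in red. In F 132 segments lie left of 0 and in M 109 lie below 0, and Ighv6-3, Ighv1-76 and Igkv5-43 lie below 0 in F and above 0 in M.

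As shares of their class rather than CPM, no single segment separated the diets over both codes. Of the 142 members 0 had a share wholly below and 0 a share wholly above that of the control libraries over both codes. In F 16 (11.3%) had a share wholly below and 4 (2.82%) wholly above, and in M 26 (18.3%) and 3 (2.11%). By CPM, 12% and 9.49% of all genes did so in F and 10% and 4.48% in M. The F count below was near that background and the M count below was over it. Both counts above were under it. Shares of a class and CPM are unlike measures, so this background is only a rough guide. Shares of a class also add up to a fixed total, so a high leading share lowers the shares of the other segments. The counts of shares are therefore not separate from the leading segments. Family shares went with the leading segments: Igkv8 held 15.6% ± 10.6 of kappa reads with black rice, 6.01% ± 2.36 with the control diet and 6.41% ± 2.09 in WT (SD, n = 6). Ighv6 held 14.2% ± 14.9, 10.9% ± 5.77 and 15.6% ± 7.88, and its black rice libraries ran from 2.82% to 42.2%. Igkv6 held 8.89% ± 4.17 with black rice and 12.4% ± 1.22 with the control diet.

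How far libraries of an arm used the same segments was measured as the percent of reads that 2 libraries place on the same segments, the sum over segments of the smaller of the 2 shares. Among the 15 pairs of black rice libraries of the Apc table it was 38.8% ± 7.19 for Ighv and 42.0% ± 11.7 for Igkv (SD over pairs, which share libraries). Among control pairs it was 59.0% ± 6.37 and 65.1% ± 4.93, and among WT pairs 60% ± 7.37 and 57.0% ± 7.74. The highest black rice pair for Ighv, at 54.7%, lay below the median control pair at 57.7%, while the highest for Igkv, at 65.7%, lay above the median control pair at 64.9%. Sharing a code made little difference: over the 3 arms, pairs of the same group had 54.4% for Ighv and pairs of the same arm but other code 51.4%.

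**Figure D5:**
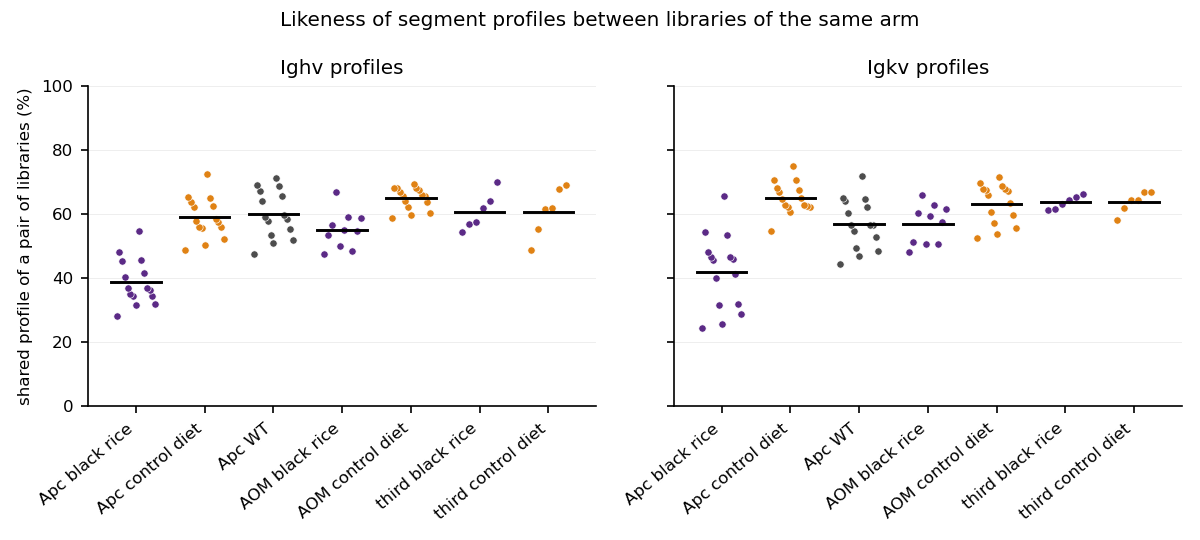
Percent of reads that 2 libraries of an arm place on the same V segments (points, pairs of libraries) for Ighv and Igkv, by arm and table, with means as lines. Apc black rice pairs average 38.8% for Ighv and 42.0% for Igkv, below the averages of 55.1% to 65.1% of the other arms shown. The measure is not separate from the evenness of the libraries.

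Control diet minus WT in the Apc table had a small median difference. By edgeR 0 members passed, as did 0% of all genes. With unadjusted p, 3 members were lower and 11 higher, where 2.03% and 2.21% of all genes were, and the median log2 difference was 0.36. No member had its control libraries wholly below or above the WT libraries, where 0.038% and 0.234% of all genes did. Igkv4-68 had the smallest p (1.97, SE 0.40, adjusted p = 0.461 by edgeR), with 3.15 to 22.3 CPM with the control diet and 2.12 to 6.53 CPM in WT. Igkv4-58 followed (3.46, SE 1.07), with 218 and 47.2 CPM in 2 control F libraries and no more than 7.55 CPM in any WT library. DESeq2 called 1 member, Igkv4-68, against 0.113% of all genes.

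Black rice minus WT, which uses the same black rice libraries as the diet comparison, had a median of -1.54. Of the members 121 were below 0, and at an unadjusted p under 0.05, 71 were lower and 2 higher, where 4.89% and 3.28% of all genes were. Of the 142 members 3 had all black rice libraries below all WT libraries and 0 above, where 0.342% and 0.0253% of all genes did. Igkv17-121 fell, with 0.768 to 1.82 CPM in black rice and 4.35 to 31.1 CPM in WT libraries and no overlap. Its log2 difference was -3.57 (SE 0.52), adjusted p = 0.049 by edgeR, where 0.00925% of all genes tested were lower and 0.00462% higher. That call was lost in 10 of the 12 fits without a single library, at an adjusted p of up to 0.255, and with TMM factors replaced by the relative log expression method (adjusted p = 0.052, edgeR). It was also lost with limma-voom, with a replicate block and in a fit of only the groups compared, each of which called 0 members. DESeq2 called 31 members, against 0.335% of all genes.

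The AOM table and the third table took no part in choosing the members, and each was normalized on its own. In the AOM table the summed level was 210 and 264 CPM in the 2 black rice F libraries and 87.8, 42.0 and 319 CPM in black rice M. It was 771, 260 and 553 CPM in control F and 128, 318 and 874 CPM in control M. The diets overlapped in both codes. Means were 185 ± 117 (n = 5) and 484 ± 298 CPM (n = 6), and the log2 difference was -1.33 beside a within-group SD of 1.17, without black rice F replicate 3. With all 12 libraries it was -1.70.

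Of the 142 members 139 were tested in the AOM table, 131 with a difference below 0 and a median of -1.42, where all genes had -0.02. By edgeR 0 members passed, as did 0% of all genes. Of the members tested, 43 were lower and 1 higher without adjustment, where 2.31% and 0.754% of all genes were. Of the members 4 (2.82%) had all 5 black rice libraries below all 6 control libraries and 0 above, where 0.0572% and 0.0191% of all genes did. Igkv3-12 had the smallest p: 2.46, 2.41, 0.213, 0.0256 and 0.309 CPM with black rice against 2.47 to 12.9 CPM with the control diet. Its log2 difference was -2.80 (SE 0.52) and that of Igkv8-30 -2.71 (SE 0.51), both with an adjusted p of 1.0 in edgeR. Markers of other cells had lower values too: 12 of 12 B cell genes were below 0 (median -1.74), at a summed 14.9 to 113 CPM with black rice and 28.7 to 525.8 CPM with the control diet. Of 12 plasma cell genes 11 were below 0 and 1 above (median -0.62). All 9 T cell genes (median -0.49) and all 5 follicle genes tested (median -1.22) were below 0. Mean CPM was lower with black rice for 10005 of the 15730 genes of at least 1 CPM. At an unadjusted p under 0.05, 4 B cell, 2 plasma cell, 1 T cell and 2 follicle genes were lower and 0 higher. The share of all genes lower at that level was 2.31%. The part of these lists in the segment values was not tested. DESeq2 called 6 members lower, among them Igkv3-12, Igkv8-30 and Ighv7-1, against 0.0458% of all genes.

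The diet differences in evenness were smaller in the AOM table. Each table was thinned to its own number of reads, so effective numbers of different tables are not on the same scale. For Ighv the effective numbers, after thinning to 496 reads, were 36.9, 27.1, 32.3, 27.9 and 35.0 with black rice and 36.3, 34.3, 33.7, 38.4, 29.8 and 36.7 with the control diet, which overlapped. For Igkv, after thinning to 1144 reads, they were 37.9, 31.0, 34.3, 24.2 and 35.8 against 43.2, 36.6, 42.2, 40.7, 35.5 and 37.5. The arm differences were -2.98 and -6.32, and with only the segments of at least 5 CPM the Ighv difference was 0.24. Igkv1-110 led black rice M replicate 2 with 27.9% of Igkv reads (exact 95% interval 25.3 to 30.6%), although at 8.16 CPM its level there was lower than in 5 of the 6 control libraries. Ighv1-85 held 17.9% of Ighv reads in black rice F replicate 2, at 18.8 CPM, against 0 to 4.75 CPM in every other AOM library analysed. Igkv14-130 held 10.4% of Igkv reads in control M replicate 2, at 23.2 CPM against 0 to 1.61 CPM elsewhere.

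Ighv1-53, the leading heavy segment of 4 of the 6 AOM control libraries at 7.33% to 12.8%, was the leading segment in only 1 of the 5 black rice libraries, F replicate 1 at 8.55%. Its level was 6.32, 5.64, 0.640, 1.25 and 8.23 CPM with black rice and 20.6, 9.53, 21.4, 3.67, 8.5 and 22.2 CPM with the control diet. Only 1 control library lay within the black rice range and the next lay just above it. Black rice pairs shared 55.1% ± 5.74 of Ighv reads (10 pairs) and control pairs 65.0% ± 3.31 (15 pairs). Ighv1 as a family held 63.9% ± 3.10 and 56.3% ± 4.19 of heavy reads.

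The third table went the other way in level. Black rice libraries held 536, 515, 97.4 and 166 CPM in summed segments and control libraries 334, 63.0, 81.2 and 264 CPM, which overlapped. The log2 difference was 0.83 beside a within-group SD of 1.21. B cell genes were above 0 for 11 of 12 (median 0.68). Together they held 8.61 to 37.2 CPM with black rice and 8.49 to 16.6 CPM with the control diet. Of 12 plasma cell genes 8 were above 0 and 4 below (median 0.21). At an unadjusted p under 0.05, 0 B cell genes differed and 1 plasma cell gene was lower, where 3.81% of all genes were lower. The part of these lists was not tested. Of 126 members tested 94 had a difference above 0, with a median of 0.67. By edgeR 0 members passed, as did 0% of all genes. Without adjustment 2 were lower and 12 higher, where 3.81% and 4.12% of all genes were. Of the members 0 lay wholly below and 3 (2.11% of 142) wholly above the control libraries, where 1.85% and 2.72% of all genes did, so the members' share was near the background.

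In the third table Igkv12-46 had the smallest p, at 6.07, 8.27, 2.98 and 5.32 CPM with black rice and 1.36, 0.113, 0.585 and 0.888 CPM with the control diet, without overlap. Its log2 difference was 2.88 (SE 0.60), adjusted p = 0.459 by edgeR. Igkv15-103 had 20.1, 6.91, 3.95 and 13.1 CPM against 4.27, 0.903, 1.17 and 2.29 CPM, which overlapped (2.29, SE 0.61, adjusted p = 0.510 by edgeR). DESeq2 called both of these and no other member, against 0.694% of all genes. In the Apc table Igkv15-103 was at 1.78 to 18.4 CPM with black rice and 10.3 to 132 CPM with the control diet, the opposite order.

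Evenness in the third table was alike in the diets, after thinning to 2038 reads for Ighv and 3544 for Igkv. Effective numbers were 31.3, 35.0, 30.3 and 32.2 with black rice and 34.6, 28.7, 35.5 and 32.8 with the control diet for Ighv, and 30.9, 37.2, 38.4 and 35.2 against 36.2, 31.6, 38.5 and 36 for Igkv. The differences, -0.70 and -0.14, were smaller than the spread within either diet. Single libraries still had segments of their own: Ighv1-9 held 13.4% of Ighv reads in black rice replicate 4 and Ighv1-59 held 13.7% in black rice replicate 3, against medians over the 8 libraries of 0.83% and 1.86%. Pairs of black rice libraries shared 60.8% of Ighv reads and pairs of control libraries 60.7%.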

How the data were processed

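Total RNA was extracted with Trizol, captured on oligo(dT) beads and sequenced on the DNBSEQ platform, per the labels' protocols. The authors deposited raw read counts per gene, whole numbers without normalization, in 3 tables. The submitters' processing notes name HISAT2, SAMtools and Subread's featureCounts, after FastQC and fastp, with the build GRCm39. For AOM libraries and for the third table the counter was featureCounts 2.0.1 on Ensembl 104 gene models, per the file headers. The header of the Apc table holds no command, and strand use and the treatment of reads matching several segments are not given in the sources used here.

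CPM was computed from these deposited counts as reads over the library's sum. Libraries were grouped by their titles and treatment labels. Each table was fitted on its own with edgeR 4.0.16 in R 4.3.3 (filterByExpr, TMM, quasi-likelihood F test, two-sided, Benjamini-Hochberg over all genes tested, threshold 0.05), and an Apc or AOM contrast over both codes averages its F difference and its M difference. The fit was tested on simulated data. Effective numbers are means of 20 random thinnings. Shares carry exact Clopper-Pearson 95% intervals, which cover counting error only, since reads were made by PCR without molecular identifiers. Alternatives were RLE size factors, no filter on low counts, DESeq2 1.42.0, limma-voom 3.58.1, a replicate block, only the groups compared, another member limit, no thinning, inverse Simpson and leaving out each library. The 42 pairs of replicates held 0 identical libraries.

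Named segments were the 10 of highest mean CPM of each class, those past the threshold in a comparison or otherwise the 2 of smallest p, the leading segment of each library, and the 3 per table whose share differed most between highest and median library. Ighv1-4, Ighv7-1, Igkv4-69 and the family and follow-on segments of smallest p were added after their values were seen. Some genes that the naming rule covers are not reported here. The members and gene lists were chosen with earlier results of these data known. Sequences came from GENCODE M21 transcripts of GRCm38, another build than the tables', so no coordinates are given.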

Additional observations from a re-analysis of the deposited data

Results flagged for a closer look

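Over 77 sets of values, each from an arm of 4 to 6 libraries, Dixon's test at the 95% level asked whether the highest or lowest library stood apart. It marked 7, where chance marks about 1 in 20 of independent sets. These sets were not independent: the levels of Ighv, of Igkv and of both together were each among them. Arms of the Apc and AOM tables also pooled both codes.

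In the Apc black rice libraries Igkv5-43 held 56.1% of Igkv reads in M replicate 2, where the leading segment of the other 5 libraries held 8.35% to 23.2%. Igha made up 61.3% of heavy constant chain CPM in black rice F replicate 3, against 80.5% to 89.95% in the others.

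In the Apc control libraries F replicate 3 stood apart in summed level, with 1471 CPM of Ighv (others 454 to 778), 2311 CPM of Igkv (667 to 1149) and 3783 CPM in all (1145 to 1900). Control M replicate 3, led by Ighv1-81 and Igkv1-117, had an Ighv effective number of 27.5, against 37.0 to 41.3 in the other control libraries. In the AOM black rice libraries Ighv1-85 held 17.9% of Ighv reads in F replicate 2, where the leading segment of the other 4 held 8.33% to 10.7%.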

How the results depend on the processing

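The summed level kept its sign under all alternatives run: leaving out single libraries gave -1.61 to -1.16 (Apc), -1.73 to -0.98 (AOM) and 0.42 to 1.30 (in the third table) on the log2 scale. Differences in effective number without single libraries were -16.9 to -12.2 (Ighv) and -14.7 to -9.25 (Igkv) in Apc, -5.42 to -0.54 and -8.06 to -4.51 in AOM, and -2.10 to 0.18 and -1.46 to 1.37 in the third table, where the sign was not kept. A member limit of 5 CPM, which keeps fewer segments, gave -7.81 for Apc Ighv and 0.24 for AOM Ighv. The AOM Ighv sign was thus not kept, and what set these changes was not tested.

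Counts of members called depended on the tool. In the order Apc diet, F, M, interaction, control minus WT, black rice minus WT, AOM and the third table, edgeR gave 1, 0, 0, 0, 0, 1, 0 and 0 and DESeq2 50, 47, 7, 6, 1, 31, 6 and 2. limma-voom gave 0 in all 8, and edgeR on only the groups compared gave 0 in the 6 Apc comparisons, those where that fit differs. Without a filter on low counts 4 were called for the Apc diet and 1 in F. RLE factors gave 0 for black rice minus WT. Leaving out single libraries gave 0 to 4 for the diet, 0 to 2 in F and 0 to 1 for black rice minus WT; elsewhere 0 to 0. Ighv9-3 kept its call only without control F replicate 1, 2 or 3 or control M replicate 2, and Igkv17-121 in black rice minus WT only without WT F or M replicate 3.

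With a replicate block, the Apc diet had 1 call, Ighv1-80 in place of Ighv9-3 (adjusted p = 0.052, edgeR), and black rice minus WT had 0. Whether the numbers pair the libraries was not settled by these values. Same-numbered libraries had a mean correlation of -0.029 in Apc, 0.086 in AOM and -0.213 in the third table. Other pairs had 0.014, -0.042 and 0.071. Single same-numbered pairs in Apc ran from -0.54 to 0.43. Depth limited AOM Ighv most, where the shallowest library had 496 reads.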

Other observations

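V segment reads stood in a different proportion to constant chain reads in the 3 tables. The ratio of Igkv to Igkc CPM was 0.129 to 0.275 in the Apc libraries, 0.032 to 0.115 in the AOM libraries and 0.050 to 0.169 in the third table, so the Apc and AOM libraries did not overlap. The tables were counted separately, and what set these ratios was not tested.

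Lambda V segments (Iglv), which are not among the members, were summed beside them. In the Apc table they held 15.6 to 279 CPM with black rice, 46.8 to 412 CPM with the control diet and 85.4 to 383 CPM in WT, which overlapped. The 2 Apc libraries with the lowest Ighv effective numbers, black rice M replicates 2 and 3, held 279 and 261 CPM of lambda segments, more than 5 of the 6 WT libraries.

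Control F replicate 3 of the Apc table, whose summed level was the highest of all 18, had an Ighv effective number of 38.7, and its leading heavy segment, Ighv6-3, held 14% of Ighv reads. It held Igkv14-130 at 148 CPM and Igkv4-58 at 218 CPM, where no other Apc library passed 7.10 CPM of Igkv14-130 and control F replicate 1 followed with 47.2 CPM of Igkv4-58. In the AOM table the highest library for Igkv14-130 was likewise a control library, M replicate 2 at 23.2 CPM.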
